A study of Rattus norvegicus with 12 samples.

Results

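The proteasome is the protease complex that degrades ubiquitin-tagged proteins, and its genes were followed here in the ganglionic eminences of rat embryos carrying mutant human huntingtin. Members were all genes whose symbol begins with Psma, Psmb, Psmc, Psmd, Psme, Psmf or Psmg and a digit and which had a probe set annotated to that gene alone. This gave 47 of the 14506 genes measured in this way, with 54 probe sets, and the brightest probe set stood for each gene. They fell into 7 core alpha genes, 11 core beta genes, 6 ATPase genes, 11 lid and base genes, 4 activator genes, 6 assembly genes, and 2 genes that carry such a symbol but encode no subunit. The inhibitor gene Psmf1 was not analysed here. Psma3 was read by a probe set shared with Psma3l, which the RefSeq table lists as a synonym of Psma3.

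The arrays held RNA of whole ganglionic eminences at embryonic day 14, the ventral forebrain tissue from which the striatum and many interneurons arise. There were 6 embryos described as BACHD+/+ (homozygous), which carry a bacterial artificial chromosome with the full-length human gene for huntingtin, its CAG tract expanded to 96 repeats, and 6 wild-type embryos. All came from 3 transgenic dams dissected on the same day, so the wild-type embryos also developed in transgenic dams, and the dam and sex of each embryo are not in the labels. The study sought early transcriptional changes in the transgenic embryos. Values are log2 intensities, and differences are homozygous minus wild type on that scale.

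The core of the proteasome is a barrel in which outer rings of alpha subunits, which form the gate, enclose inner rings of beta subunits, some of which carry the proteolytic sites. A regulatory particle on its end has a base, with a ring of ATPases that unfolds the substrate, and a lid, which removes the ubiquitin chain. The subunits assemble in fixed proportion, and the transcription factor Nfe2l1 can raise many of their genes together when proteasome activity is short. In Huntington disease, inclusions of mutant huntingtin contain ubiquitin and proteasome subunits.

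Of 14 marker genes listed for the eminences, 11 were measured, none with a mean below 9.66. Their mean level lay between 11.09 and 11.21 in wild-type and between 11.11 and 11.24 in homozygous arrays. The differences were above 0 in 7 and below 0 in 4, and none passed an adjusted p of 0.05 in limma. Nkx2-1 stood at 0.16 ± 0.0403 without overlap (SE, adjusted p = 0.108 in limma). Dlx5 stood at -0.18 ± 0.0804 (adjusted p = 0.321 in limma). These 2 had an unadjusted p under 0.05 in limma, or 18.2% of the 11, against 15.1% of all genes. The Htt probe set was higher in homozygous embryos, at 10.26 ± 0.0967 against 9.97 ± 0.114 (SD, n = 6 each, adjusted p = 0.0408 in limma). Whether this rat probe set also reads transcript of the human gene that these embryos carry was not tested. Array medians lay between 7.67 and 7.71 in wild type and between 7.69 and 7.76 in homozygous embryos, and the median difference over all genes was 0.02. A pair of wild-type arrays stood apart, in a larger share of the members than of all genes. The pair was not particular to the members. Leaving it out moved the probe sets with an adjusted p under 0.05 in limma from 124 to 582 over the whole table. In 20 of the 47 genes wild type 1 and wild type 2 both lay above all other wild-type arrays, and in 18 both lay below them, together 80.9% of the members against 40.6% of all genes. Without the pair, a setting chosen after seeing the data, 7 members changed sign, all but Psme3ip1 with differences under 0.05 in size both ways. Of the members that kept their sign, 11 grew and 17 shrank by over 1.5 times, 12 moved less, and 5 members passed the threshold that had not passed with all arrays.

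The 7 core alpha genes all had differences below 0, from -0.22 to -0.01, and Psma4 and Psma5 fell past the threshold, an adjusted p of 0.05 in limma over all probe sets. Of the other 40 members, 11 had differences below 0 and 29 above. With arrays centred on their medians, which moved the median over all genes from 0.02 to -0.02, these counts were 20 and 20. None of the 40 passed, although 10 had an unadjusted p under 0.05. Differences below 0 made up 27.5% of the 40 and 38.3% of all 47 members, against 38.6% of all genes. The 2 members that passed are 4.26% of the 47, and 0.469% of all genes passed, 0.269% in the lower direction. In the 47 members 15 had an unadjusted p under 0.05, which is 31.9%, and 15.1% of all genes did. The median difference was -0.11 for core alpha, 0.05 for core beta, 0.04 for ATPase, 0.02 for lid and base, 0.04 for activator and 0.04 for assembly genes, and 0.03 over all members. With arrays centred on their medians the core alpha median was -0.15, and those of core beta (0.0095), ATPase (0.0013), lid and base (-0.014), activator (0.0023) and assembly genes (0.0012) were near 0. Without wild type 1 and 2 the core alpha median was -0.10, core beta stood at 0.04, lid and base at 0.03 and assembly at 0.05, and the ATPase and activator medians fell to 0.0062 and 0.0034. Psma4 and Psma5 had been seen to fall in an earlier analysis of the same arrays, so their place in the core alpha group adds no independent evidence.

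**Figure D1:**
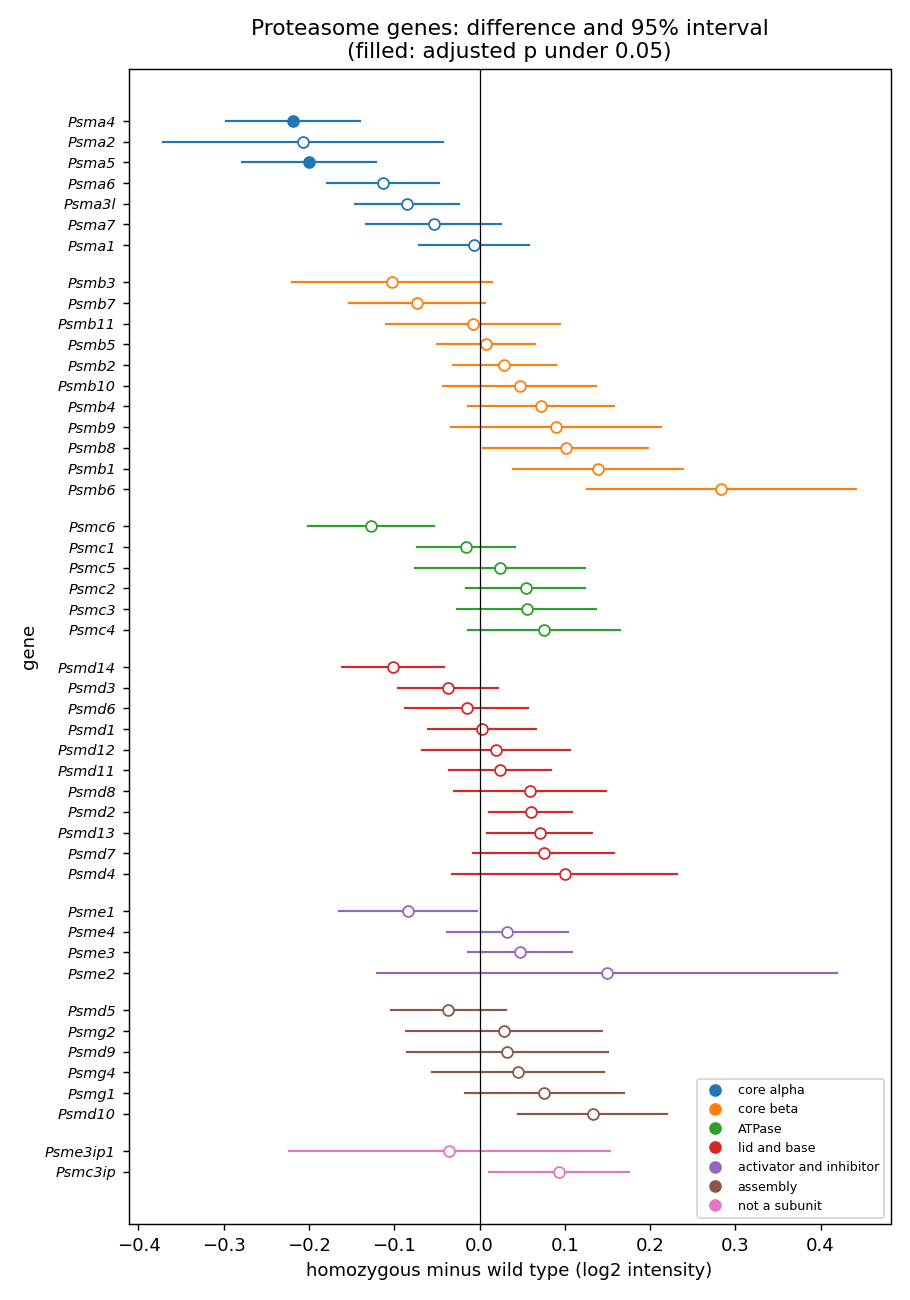
Difference between 6 homozygous and 6 wild-type embryos (horizontal axis, log2 intensity) for each of the 47 members, by role, with the 95% confidence interval from limma as a line. Filled points are Psma4 and Psma5, which passed an adjusted p of 0.05, and all 7 core alpha genes lie below 0.

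Psma4 encodes an alpha subunit of the outer rings. Its log2 intensity ran from 10.85 through a median of 10.94 to 11.02 in wild-type embryos and from 10.62 through 10.73 to 10.80 in homozygous embryos. Every homozygous embryo therefore lay below every wild-type embryo. The means were 10.94 ± 0.0672 and 10.72 ± 0.0617 (SD, n = 6 each), a difference of -0.22 ± 0.0368 (SE, adjusted p = 0.0273 in limma). This is 14.1% lower, with a 95% confidence interval from 9.25% to 18.7%.

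Psma5 encodes another subunit of the same rings. It ran from 10.05 through 10.12 to 10.25 in wild-type embryos and from 9.83 through 9.94 to 9.99 in homozygous embryos, again with no overlap. The means were 10.13 ± 0.0682 and 9.93 ± 0.0522 (SD, n = 6 each), a difference of -0.20 ± 0.0367 (SE, adjusted p = 0.0388 in limma), or 12.9% lower with a 95% confidence interval from 8.07% to 17.6%. For both genes an exact permutation test over the embryos gave p = 0.00216 (2-sided), which is the lowest value this design can reach. Any gene whose groups do not overlap gets this value, and 319 of 14506 genes had no overlap. The test therefore adds nothing to the absence of overlap. In both, homozygous 2 was the lowest and homozygous 6 the highest of the homozygous arrays.

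The adjusted p of both genes sat close to the threshold. With all 12 arrays, neither passed with a replicate block (Psma4 0.0885, Psma5 0.125) or without an intensity trend in limma (0.0775 and 0.0837). Leaving out single arrays also decided it. Psma4 no longer passed without wild type 4 (0.0575), 5 (0.0621) or 6 (0.0613), or without homozygous 1 (0.0613), 2 (0.0642), 3 (0.0791), 4 (0.0720) or 5 (0.0671). Psma5 no longer passed without wild type 1 (0.0641), 4 (0.0717), 5 (0.0621) or 6 (0.0811), or without homozygous 1 (0.0717), 2 (0.0763), 3 (0.0936), 4 (0.0805) or 5 (0.0821). The size moved less: with 1 array left out Psma4 stood between -0.24 and -0.20 and Psma5 between -0.22 and -0.18. Without wild type 1 and 2 together Psma4 was at -0.18 and Psma5 at -0.16, with adjusted p of 0.0240 and 0.0272 in limma. The RefSeq table names no pseudogene of Psma4 and 1 of Psma5, and copies of that kind can add signal to a probe set.

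**Figure D2:**
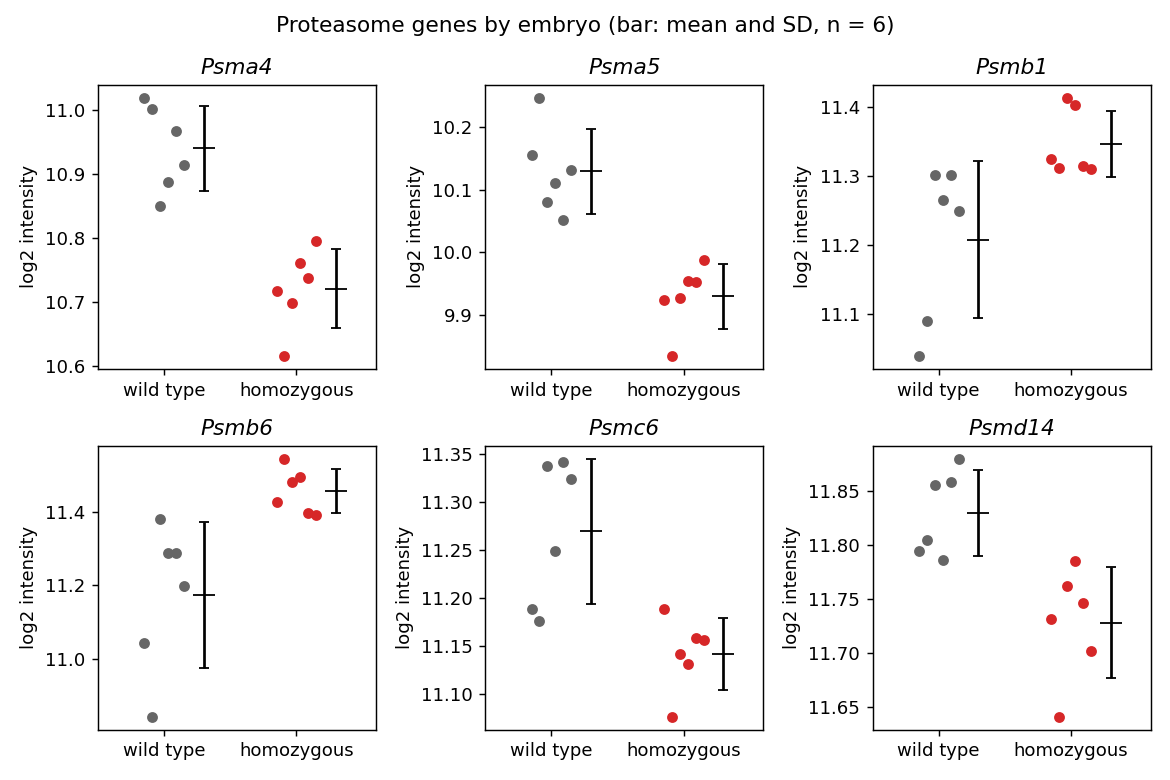
Log2 intensity of 6 proteasome genes in each of the 6 wild-type (grey) and 6 homozygous (red) embryos, with a bar for the mean and SD of each group; the vertical axes differ between panels and do not start at 0. The groups do not overlap for Psma4, Psma5, Psmb1, Psmb6 and Psmd14, and in Psmb1 and Psmb6 wild type 1 and 2 are the lowest points.

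The other 5 core alpha genes did not pass. Psma6 ran from 11.11 to 11.24 in wild-type embryos and from 11.01 to 11.16 in homozygous embryos, with 4 homozygous embryos below every wild-type embryo (difference -0.11 ± 0.0307, SE, adjusted p = 0.120 in limma). It passed with arrays centred on their medians (-0.15, adjusted p = 0.0474 in limma). A second, much dimmer probe set of Psma6 differed by -0.02 ± 0.0549. Psma3l ran from 11.65 to 11.79 in wild-type embryos and from 11.58 to 11.69 in homozygous embryos, with a difference of -0.08 ± 0.0285 (adjusted p = 0.194 in limma). It passed without wild type 1 and 2, which were its lowest wild-type arrays (-0.12, adjusted p = 0.0282 in limma), and with centred arrays (-0.12, adjusted p = 0.0368 in limma). The brighter probe set that Psma3l shares with Psma3 differed by -0.08 ± 0.0289.

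Psma2 had nearly the size of Psma4 at -0.21, with an SE of 0.0767 and a wild-type SD of 0.210 (n = 6). Wild type 1 and 2 read 11.01 and 10.93 and the other wild-type embryos 10.50 to 10.61, against 10.43 to 10.57 in homozygous embryos, and without that pair its difference was -0.07. Psma7 differed by -0.05 ± 0.0370 (-0.10 without the pair) and Psma1 by -0.01 ± 0.0302 (0.03 without it), and for both the 2 groups overlapped widely. Psma1 stood above 0 in 7 of 22 other settings, so that 6 or 7 of the 7 core alpha genes were lower in every one of them.

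As a description, the core alpha genes can be averaged in each embryo after subtracting each gene's wild-type mean. This average ran from -0.05 to 0.05 in wild-type embryos and from -0.20 to -0.09 in homozygous embryos, so all 6 homozygous embryos lay below all wild-type embryos. Over the 5 core alpha genes that did not pass it ran from -0.05 to 0.05 and from -0.15 to -0.06, with the same order. The core beta average ran from -0.03 to 0.04 in wild-type embryos and from 0.01 to 0.08 in homozygous embryos, and the ATPase average from -0.05 to 0.04 and from -0.03 to 0.05. Core alpha minus core beta within an embryo ran from -0.09 to 0.08 in wild-type embryos and from -0.28 to -0.13 in homozygous embryos. Core alpha minus ATPase ran from -0.09 to 0.10 and from -0.17 to -0.11, so that in each homozygous embryo the alpha genes were low relative to both other groups. These averages share the genes that passed, and no test was made of them.

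**Figure D3:**
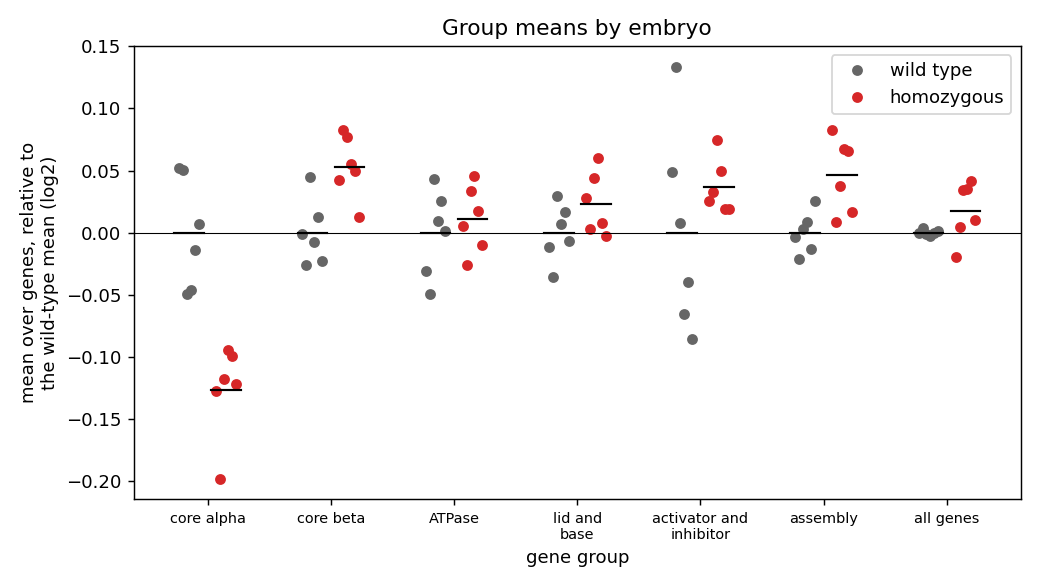
Mean over the genes of each proteasome group, and over all genes, in each embryo relative to the wild-type mean of each gene (vertical axis, log2; wild type grey, homozygous red, black line the group mean). In core alpha the 6 homozygous embryos, from -0.20 to -0.09, lie below all wild-type embryos, and in core beta they lie between 0.01 and 0.08.

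Of the 11 core beta genes, 8 had differences above 0 (6 with arrays centred on their medians), none passed in limma, and 3 had an unadjusted p under 0.05. Over all genes 8909 of 14506 had differences above 0, so most genes of any group can be expected there. Psmb6 encodes a beta subunit with a proteolytic site, the caspase-like one, and had the largest difference of all members. It ran from 10.84 through 11.24 to 11.38 in wild-type embryos and from 11.39 through 11.46 to 11.55 in homozygous embryos, without overlap. The difference was 0.28 ± 0.0736 (SE), or 1.22-fold with a 95% confidence interval from 1.09 to 1.36 (adjusted p = 0.114 in limma). Its second probe set gave 0.30 ± 0.0651 (adjusted p = 0.0599 in limma). The mean of both passed (adjusted p = 0.0471 in limma), but there the adjustment ran over gene means and not over all probe sets. That change alone took Psma4, with 1 probe set and an unchanged difference, from an adjusted p of 0.0273 to 0.0147 in limma. Wild type 1 and 2 were the lowest arrays of Psmb6 at 11.04 and 10.84. Without them the difference was smaller at 0.17 but passed (adjusted p = 0.0446 in limma). RefSeq names 2 pseudogenes of Psmb6, so signal from a copy cannot be told apart.

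Psmb1, a beta subunit without a proteolytic site, ran from 11.04 through 11.26 to 11.30 in wild-type embryos and from 11.31 through 11.32 to 11.41 in homozygous embryos. The groups did not overlap, but the gap between them was narrow, and wild type 1 and 2 were lowest at 11.04 and 11.09. The difference was 0.14 ± 0.0463 (SE, adjusted p = 0.191 in limma), and 0.07 without that pair. The genes of the other proteolytic subunits of the standard core had smaller differences. Psmb5, for the chymotrypsin-like site, differed by 0.01 with a 95% confidence interval from -0.05 to 0.07, and Psmb7, for the trypsin-like site, by -0.07 with one from -0.15 to 0.01. Without wild type 1 and 2 they stood at 0.04 and -0.03. Psmb2 stood at 0.03, Psmb4 at 0.07 and Psmb3 at -0.10, and their groups overlapped. In Psmb3 wild type 1 and 2 read 12.04 and 12.12, above all other arrays, and without them its difference was -0.0074. Without the pair Psmb2 stood at 0.07 (adjusted p = 0.0623 in limma) and Psmb4 at 0.04.

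In the immunoproteasome, which immune cells and interferon-treated cells build, Psmb8, Psmb9 and Psmb10 replace the proteolytic subunits of the standard core. Psmb8 had a mean of 6.38 ± 0.0629 in the wild-type group and of 6.48 ± 0.0568 in the homozygous group (SD, n = 6 each), with 5 homozygous embryos above every wild-type embryo (difference 0.10 ± 0.0454, SE, adjusted p = 0.314 in limma). Psmb9 differed by 0.09 ± 0.0577 and Psmb10 by 0.05 ± 0.0418. Psmb8 and Psmb9, with Psmb11, the subunit of the thymus, lay below every array's median over all probe sets, so they read among the dimmer probe sets, where it cannot be told whether a probe set reads a transcript. Of 8 antigen presentation genes that work with the immunoproteasome, 6 were measured, 4 of them below the array medians. None had an unadjusted p under 0.05 in limma. Irf1 was at 0.11 ± 0.0520 and the peptide transporter gene Tap2 at 0.07 ± 0.0531, and both are among the 4 dim genes. All 12 microglia and macrophage markers were measured, 7 of them below the array medians, and their mean level ran from 7.45 to 7.64 in wild-type embryos and from 7.41 to 7.57 in homozygous embryos. None of these 12 passed in limma and 1 had an unadjusted p under 0.05. This was P2ry12, at -0.18 ± 0.0491 without overlap (SE, adjusted p = 0.124 in limma). Whether such cells had a part in the values of Psmb8 was not tested.

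Of the 6 ATPase genes, 2 had differences below 0 and 4 above (3 and 3 with centred arrays), none passed in limma, and 1 had an unadjusted p under 0.05. That gene was Psmc6, which ran from 11.18 through 11.29 to 11.34 in wild-type embryos and from 11.08 through 11.15 to 11.19 in homozygous embryos. In 5 of 6 homozygous embryos it lay below every wild-type embryo, and the exception, homozygous 1, lay above wild type 2 only. Its difference was -0.13 ± 0.0343 (SE, adjusted p = 0.120 in limma). Without wild type 1 and 2 it was -0.17 and passed (adjusted p = 0.0108 in limma), and it also passed with array weights (0.0260) and with arrays centred on their medians (0.0397). The neighbour subunits of the ring read between -0.02 for Psmc1 and 0.08 for Psmc4. Psmc4 ran from 11.64 to 11.88 in wild-type embryos and from 11.75 to 11.92 in homozygous embryos, and its 2 probe sets both gave 0.08, with SE of 0.0415 and 0.0504. Without wild type 1 and 2 Psmc4 stood at 0.13 (adjusted p = 0.0927 in limma), and Psmc1, Psmc2, Psmc3 and Psmc5 between -0.03 and 0.01.

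In the lid and base, 8 of 11 genes had differences above 0 and 3 below (5 and 6 with centred arrays). None passed in limma and 3 had an unadjusted p under 0.05. Psmd14, the lid enzyme that cuts the ubiquitin chain off the substrate, ran from 11.79 through 11.83 to 11.88 in wild-type embryos and from 11.64 through 11.74 to 11.79 in homozygous embryos. The groups did not overlap, but the gap between them was under the spread within either group, with a difference of -0.10 ± 0.0279 (SE, adjusted p = 0.123 in limma). Of 22 other settings it passed only with arrays centred on their medians (-0.14, adjusted p = 0.0258 in limma), which lowered the difference of every gene. Psmd2, a large scaffold subunit of the base, ran from 12.42 to 12.48 in wild-type embryos and from 12.43 to 12.55 in homozygous embryos. There 5 homozygous embryos lay above every wild-type embryo (0.06 ± 0.0226, or 0.02 with centred arrays). Psmd13 stood at 0.07 ± 0.0288. The ubiquitin receptor gene Psmd4 had 0.10 ± 0.0614, with wild type 2 lowest at 9.19, and 0.01 without wild type 1 and 2. The other 7 genes stood between -0.04 for Psmd3 and 0.08 for Psmd7, and without the pair between -0.04 for Psmd12 and 0.05 for Psmd11. In all, the 2 groups did not overlap in 5 members, 3 lower and 2 higher, which is 10.6% of the members. Over all genes the share was 2.20%, with 0.944% lower and 1.25% higher.

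The activators open the gate of the core from its end. Psme1 ran from 10.39 to 10.63 in wild-type embryos and from 10.36 to 10.46 in homozygous embryos (-0.08 ± 0.0378, SE, adjusted p = 0.318 in limma), and stood at -0.04 without wild type 1 and 2. Its partner in the same ring, Psme2, had the widest wild-type spread of the members, from 10.55 to 11.47, with wild type 2 and 1 highest at 11.47 and 11.21. The homozygous values, from 10.99 to 11.15, lay inside that range and gave 0.15 ± 0.126, but without wild type 1 and 2 the difference was 0.36 and passed (adjusted p = 0.0104 in limma). RefSeq names 3 pseudogenes of Psme2. Psme3, of the nuclear activator, stood at 0.05 ± 0.0286 and Psme4, of another large nuclear activator, at 0.03 ± 0.0331, and without the pair they stood at 0.01 and -0.0060.

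Of the 6 assembly genes, whose products help to build the particle and leave it, 5 had differences above 0 (3 with centred arrays). None passed in limma and 1 had an unadjusted p under 0.05. This was Psmd10, or gankyrin, a chaperone of the base, which ran from 8.89 through 9.02 to 9.11 in wild-type embryos and from 9.04 through 9.15 to 9.20 in homozygous embryos. There 5 of 6 homozygous embryos lay above every wild-type embryo (0.13 ± 0.0410, SE, adjusted p = 0.164 in limma). Psmg1, a chaperone of the alpha ring, ran from 9.89 to 10.16 in wild-type embryos and from 10.12 to 10.25 in homozygous embryos (0.08 ± 0.0435). Wild type 2 and 1 were its lowest arrays, and without them its difference was 0.02. Psmd5, Psmg2, Psmd9 and Psmg4 stood between -0.04 and 0.05, and without the pair between -0.07 and 0.10. The 2 members that are no subunit also did not pass. Psmc3ip, which acts in meiotic recombination, ran from 8.59 to 8.75 and from 8.66 to 8.80 (0.09 ± 0.0383), and Psme3ip1, which binds the product of Psme3, from 10.68 to 11.26 and from 10.75 to 10.88 (-0.04 ± 0.0879). Psme3ip1 was highest in wild type 2 and 1, at 11.26 and 11.08, and without them its difference was 0.12 (adjusted p = 0.0471 in limma).

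The wider machinery was read from a list of 29 genes for proteasome cofactors, regulators, shuttle proteins, ubiquitin and its activating enzymes, of which 22 were measured. The difference was below 0 in 11 of them and above 0 in 11. None passed in limma and 8 had an unadjusted p under 0.05, 6 lower and 2 higher. This is 36.4% of the 22, against 15.1% of all genes. The groups did not overlap in 3, or 13.6%, against 2.20% of all genes. Uchl5, a deubiquitinase bound to the base, stood at 10.72 ± 0.0221 in homozygous embryos against 10.83 ± 0.0316 (SD, n = 6 each), without overlap (-0.11 ± 0.0237, SE, adjusted p = 0.0599 in limma). Zfand5, which binds the proteasome and activates it, also did not overlap (-0.13 ± 0.0306, adjusted p = 0.0764 in limma), nor did Nploc4, a cofactor of the segregase Vcp (0.10 ± 0.0288, adjusted p = 0.140 in limma). Of genes named for their role, Nfe2l1 stood at 0.02 ± 0.0331, the related factor Nfe2l2 at -0.23 ± 0.0699 (adjusted p = 0.162 in limma), and Pomp, which matures the core, at 0.04 ± 0.0261.

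Promoter sequence is shown for Psma4 and Psma5, the members that passed, and for Psmb6, the largest difference in the other direction. Each is the 250 bases before the annotated start from RefSeq, on build GRCr8 and the plus strand, with CCAAT, the box bound by nuclear factor Y, and TGACNNNGC, the core of the antioxidant response element bound by Nfe2l1 and Nfe2l2, in capitals. Both strands were searched, and these motifs do not overlap in the sequences shown. Psma4 is chr8:64236270-64236519, Psma5 chr2:198584255-198584504 and Psmb6 chr10:55737638-55737887.
Psma4: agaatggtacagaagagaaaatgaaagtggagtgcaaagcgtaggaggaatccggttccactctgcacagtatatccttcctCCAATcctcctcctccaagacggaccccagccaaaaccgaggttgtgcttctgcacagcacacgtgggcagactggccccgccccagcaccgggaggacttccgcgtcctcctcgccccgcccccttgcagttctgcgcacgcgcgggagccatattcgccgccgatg
Psma5: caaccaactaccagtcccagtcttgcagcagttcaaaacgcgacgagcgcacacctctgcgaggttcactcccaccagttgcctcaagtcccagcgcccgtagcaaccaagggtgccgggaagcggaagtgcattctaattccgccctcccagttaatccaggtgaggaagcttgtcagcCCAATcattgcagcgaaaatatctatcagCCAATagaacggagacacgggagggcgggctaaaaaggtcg
Psmb6: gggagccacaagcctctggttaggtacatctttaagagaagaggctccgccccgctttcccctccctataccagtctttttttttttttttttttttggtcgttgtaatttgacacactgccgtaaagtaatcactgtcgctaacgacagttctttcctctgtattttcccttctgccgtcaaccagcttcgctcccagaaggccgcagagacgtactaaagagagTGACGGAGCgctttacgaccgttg
The Psma4 stretch holds 1 CCAAT and that of Psma5 holds 2, with no TGACNNNGC in either. The Psmb6 stretch holds 1 TGACNNNGC, which begins at -24 counted from the start, and no CCAAT. Of the 47 members 41 had a promoter entry, and TGACNNNGC was found in 6 of these, or 14.6%, against 10.1% of 33469 promoters of this length. CCAAT was found in 19, or 46.3%, against 34.0%. Besides Psmb6, TGACNNNGC was found in Psmb2, Psmb5, Psmd1, Psmd9 and Psme4, whose differences lay between 0.0030 and 0.033. Members with CCAAT lay on both sides of 0, among them Psma2 at -0.21, Psmb1 at 0.14 and Psmd10 at 0.13. A link between these motifs and the direction of a difference was not tested. The members' stretches had a median of 57.2% G and C, against 51.2% over all. A match is a run of letters and not a shown binding site.

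**Figure D4:**
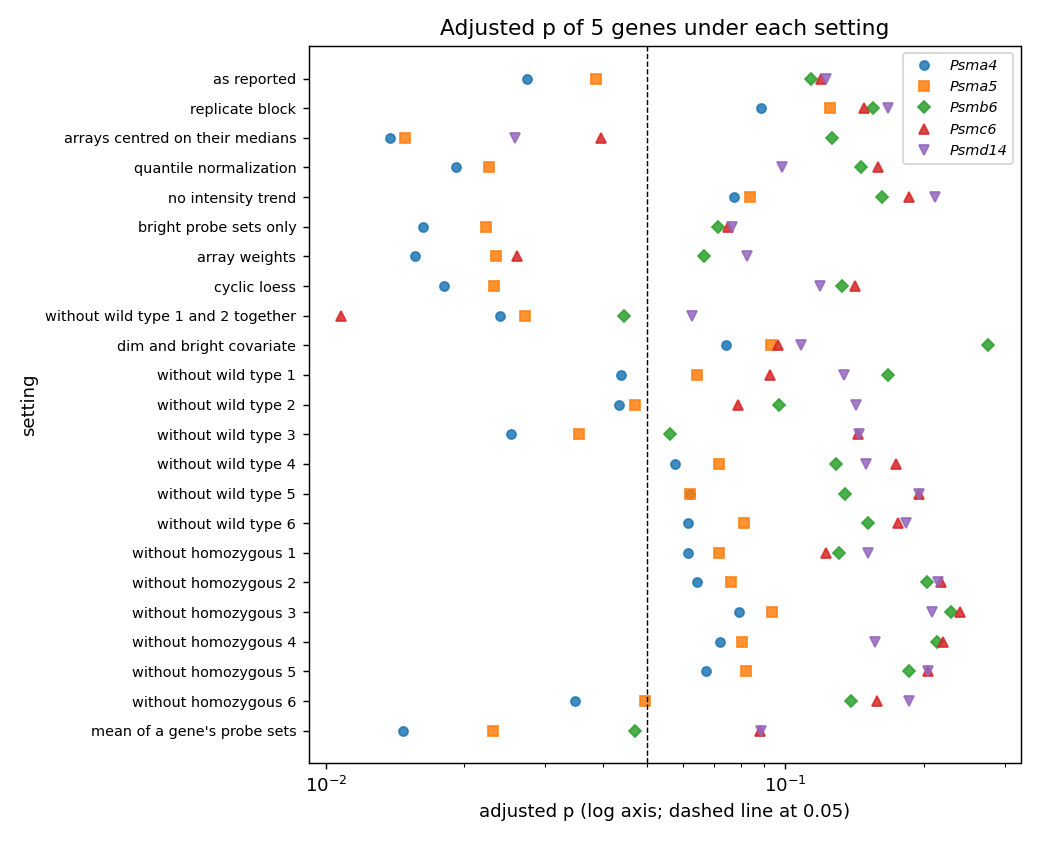
Adjusted p from limma (horizontal log axis, dashed line at 0.05) of 5 members as reported and under 22 other settings, 1 row per setting. Psma4 lies left of the line in 11 of the 22 and Psma5 in 10, while Psmb6, Psmc6 and Psmd14 lie left of it in 2, 3 and 1.

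Levels of other cell types and array properties were measured beside these results. The mean level of 4 measured pallial markers, of 8 listed, ran from 9.14 to 9.62 in wild-type embryos and from 9.13 to 9.25 in homozygous embryos, and 3 of the 4, Neurod6, Neurod2 and Slc17a7, were at -0.36, -0.25 and -0.25 with an unadjusted p under 0.05, none passing in limma. The mean of 8 neuronal markers ran from 11.77 to 11.84 and from 11.67 to 11.81, with 6 of 8 differences below 0. Of these Nefl, a neurofilament gene, fell by 0.42 ± 0.0653 (SE, adjusted p = 0.0273 in limma) without overlap, more than any member, and Nefm was at -0.21 ± 0.0454 (adjusted p = 0.0552 in limma), also without overlap. Tubb3, Dcx, Stmn2 and Elavl4 lay between -0.05 and -0.01. The 2 above 0 were Map2 at 0.09 ± 0.0263 (SE, adjusted p = 0.131 in limma) and Elavl3 at 0.12 ± 0.0813. The part of the neuronal markers in the lower core alpha values was not tested. For the 5 measured progenitor markers the mean ran from 11.64 to 11.84 and from 11.65 to 11.78, with 4 of 5 differences above 0. Hes5 stood at 0.15 ± 0.0419 (SE, adjusted p = 0.121 in limma). The 1 marker below 0 was Fabp7, at -0.41 ± 0.128 (adjusted p = 0.163 in limma). Erythroid markers, 5 of 9 measured, ran from 8.52 to 9.08 and from 8.43 to 8.84, highest in wild type 2. Hbb was at -0.49 ± 0.147 (adjusted p = 0.155 in limma). The mean of 8 endothelial markers ran from 8.45 to 8.63 and from 8.50 to 8.56, with 5 differences above 0 and 3 below. Of these Cdh5 stood at 0.15 ± 0.0332 without overlap (SE, adjusted p = 0.0641 in limma). The mean of the dimmer minus that of the brighter probe sets ran from -3.88 to -3.77 in wild-type embryos and from -3.85 to -3.75 in homozygous arrays. With that value as a covariate, chosen after seeing the data, Psma4 stood at an adjusted p of 0.0742 and Psma5 at 0.0932 in limma. The part of cell makeup in the results was not tested, and in bulk tissue fewer cells of a type and less RNA per cell cannot be told apart.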

How the data were processed

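RNA of 6 homozygous and 6 wild-type embryos was hybridised to Affymetrix rat Gene ST arrays, 1 per embryo. The authors deposited log2 intensities, 1 per probe set and array. Partek 6.4 and RMA are named in the submitters' processing notes, without settings. RMA as a rule equalises the arrays' distributions, so a shift common to all genes could go unseen, and short probes compress folds. The deposited values were not fully equal between arrays. Quantile normalization moved the median difference over all probe sets from 0.029 to 0.0025. Genes were named from the platform annotation (15310 of 29214 probe sets with 1 gene), and 46 of 47 members matched RefSeq.

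All probe sets were fitted with limma 3.58.1 in R 4.3.3 (lmFit, eBayes with an intensity trend, genotype as the only factor), with Benjamini-Hochberg adjustment over all at 0.05. The number of arrays limits precision. Tested on simulated data, 29214 probe sets with the pooled spread of these arrays, limma called 28%, 66%, 88% and 100% of planted differences. These were of 0.2, 0.3, 0.5 and 1 (50 of each), and 9 other probe sets were called falsely. The simulated noise was independent between arrays and of equal spread in both groups. In the real arrays the wild-type SD was the larger in 63.7% of all genes and in 38 of 47 members. The planted probe sets were drawn from the whole table, where the median SE was 0.0576, against 0.0382 in the members. The simulated shares therefore need not hold for these data or for the members. Members and lists were chosen with earlier results of these data known. Values by array are given for members that passed and the 2 of smallest p in each role, and other genes with array values were picked after their values were seen. Alternatives were a replicate block, other scalings, no trend, bright probe sets, array weights, averaged probe sets and leaving out arrays. With averaged probe sets the adjustment ran over gene means, and with bright probe sets over those alone, so fewer tests were adjusted for. Cyclic loess, a dim and bright covariate and leaving out wild type 1 and 2 were added after seeing the data. Figures used matplotlib 3.10.9.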

Additional observations from a re-analysis of the deposited data

Results flagged for a closer look

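Among 94 groups of 6 arrays, 2 for each member, 4 held an array farther from the others than Dixon's limit allows, and chance flags about 5% of groups. Psma6 had its lowest wild-type value in wild type 4, at 11.11, with the next at 11.20. Psmb7 had its highest wild-type value in wild type 1, at 12.47, with the next at 12.32. Psmb9 had its highest homozygous value in homozygous 2, at 6.86, with the next at 6.64. Psmd2 had its lowest homozygous value in homozygous 6, at 12.43, with the next at 12.52.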

How the results depend on the processing

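The number of members past the threshold, 2 as reported, was also 2 with quantile normalization, bright probe sets only and cyclic loess, and 3 with array weights and with the mean of a gene's probe sets. It was 6 with arrays centred on their medians and 7 without wild type 1 and 2 together, and 0 with the replicate block, without an intensity trend and with the dim and bright covariate, where 13 members had an unadjusted p under 0.05 in limma each time. Leaving out 1 array gave 0 to 2. Same-numbered arrays are not stated to be paired, their deviations correlated between -0.08 and 0.26, and 2 of 6 wild-type arrays correlated best with their own number. The members' median difference of 0.03 became -0.0087 with centred arrays and lay between 0.0176 and 0.0291 with 1 array left out. Centring lowered every difference, which favoured lower genes in the count that passed. Of the members named with array values, those above 0 fell to 0.25 for Psmb6, 0.10 for Psmb1 and 0.09 for Psmd10. Psmc3ip fell to 0.06, Psmc4 and Psmg1 to 0.04, Psmd2 to 0.02 and Psme3 to 0.01. Over the whole table the 124 probe sets became 18 with the replicate block, 302 with centred arrays, 3 without a trend, 255 among bright probe sets only, 414 with array weights, 582 without wild type 1 and 2 and 6 with the covariate. They ranged from 4 to 200 with 1 array left out. The split of 66 higher and 58 lower became 35 and 267 with centred arrays, 43 and 77 with quantile normalization and 44 and 74 with cyclic loess. In all, 14 members lay above 0 in some settings and below in others. Of the members named with array values, only Psme3ip1 changed direction, to 0.057 with array weights, 0.12 without wild type 1 and 2 and 0.070 with the covariate, and it lay between -0.072 and 0.044 with 1 array left out. The cause was not tested.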
